A study of Mus musculus with 35 samples.

Results

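The livers of old mice were compared with the livers of young mice after a sham operation, in which the animal was anesthetized and opened and its liver was handled but not cut. The arrays were chosen by their labels, which name sham surgery for 11 of the 35 arrays in the series. The old sham group had 6 arrays, with 2 each at 24, 38 and 48 h after surgery. The young sham group had 5 arrays, with 2 at 24 h, 1 at 38 h and 2 at 48 h. Old mice were 25 to 27 months of age and came from the National Institute on Aging. Young mice were 5 to 6 months of age and came from Jackson Laboratories. Every mouse was a male CB6F1 hybrid, so strain and sex were shared by all groups, and the age of a mouse and its supplier cannot be told apart in any comparison below. The anesthesia, avertin with isoflurane, was shared by old and young sham mice. The series also holds 3 old and 3 young untreated livers at 0 h, and 18 arrays of old and young livers after partial hepatectomy at the same 3 times. The labels do not say whether replicate arrays came from separate mice, so p-values measure the spread between arrays, which may be technical.

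Each array measured RNA as the brightness of probe sets, groups of short probes against one transcript. Values are log2 signals, so a difference of 1 is a doubling, and all differences are old minus young. The analysis covered 34945 probe sets with 1 gene symbol, which stand for 18193 genes. Where a gene had several probe sets, the one with the highest mean over all arrays stood for it unless another is named. The age difference was the mean of the differences at 24, 38 and 48 h, tested with limma over all 35 arrays, and a probe set passed where its Benjamini-Hochberg adjusted p was below 0.05. Bulk liver RNA mixes hepatocytes with blood vessel, macrophage and lymphoid cells, so more cells of a type and more RNA per cell cannot be told apart.

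As background, the liver answers injury and surgery with an acute-phase response, in which hepatocytes secrete serum amyloid, fibrinogen and other plasma proteins. Kupffer cells, the resident macrophages, take up particles and present antigen on major histocompatibility complex (MHC) class II molecules. Interferons switch on antiviral genes through a short promoter element, and plasma cells make antibody. Aged rodent tissues are known for holding more antibody-producing cells than young ones.

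The 11 sham arrays correlated with each other across genes at Pearson r of 0.987 to 0.996. The hepatocyte list, led by Alb (albumin) and Apoa2 (an apolipoprotein), averaged 13.91 to 13.96 in old arrays, against 13.83 to 13.95 in young arrays. 5 sham arrays stood apart in small groups of genes, each holding 2 to 28 genes more than 1 log2 unit above all the others. The first old 24 h array was the highest of the 11 in 22 of 33 interferon-induced genes. The second old 24 h array was the highest in 7 of 10 MHC class II genes and held Adipoq, an adipocyte hormone, at 8.48, against at most 6.34 elsewhere. The first old 38 h array was the highest in 9 of 11 skeletal muscle genes, and the second was the highest in 31 of 48 respiratory chain genes. The single young 38 h array held Cyp4a14, a fatty acid hydroxylase, at 12.03, against at most 10.47 in the other sham arrays. On dimmer probe sets it also held Slc26a3, a chloride exchanger of the intestinal lining, far above every other array. For some of the results that rest on these arrays, values without them are given below.

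Over all 35 arrays, 16 probe sets of 13 genes passed, which is 0.0458% of those tested, 11 higher and 5 lower in old livers. Counted by the brightest probe set of each gene, 9 genes passed, or 0.0495% of 18193. At an unadjusted p below 0.05, 802 genes were higher in old livers (4.41%) and 694 were lower (3.81%). Old arrays lay above all young arrays in 207 genes (1.14%) and below all of them in 62 genes (0.341%). The median difference over all genes was 0.00, and 50.6% of genes were higher in old livers. Leaving out 1 array at a time gave 10 to 45 probe sets, the fewest without the second old 48 h array and the most without the first old 24 h array. With 24 and 48 h alone, 7 probe sets passed, of which 4 were among the 16. That setting drops the single young 38 h array and the 38 h age difference with it. The count depended on which arrays set the spread, which in the main fit came from all 35 arrays, hepatectomy arrays included. The 11 sham arrays alone gave 108 probe sets, 98 higher and 10 lower in old livers. Array weights, whose estimation stopped before converging, gave 423, 316 higher and 107 lower. These weights, which are low where an array departs from its group, were 0.93 to 1.80 in sham arrays. The lowest were 0.02 and 0.15, in the second old 24 h and the third old 38 h hepatectomy arrays. The median difference over all probe sets was -0.0078 in each of these fits.

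Noct had the largest difference of the genes that passed, antibody genes apart. It encodes nocturnin, a phosphatase of NADPH whose transcript cycles with the circadian clock in liver. Its level was 11.89 and 11.84 at 24 h, 11.65 and 11.63 at 38 h, and 11.50 and 11.89 at 48 h in old arrays, against 9.84 and 10.54 at 24 h, 9.29 at 38 h, and 9.57 and 10.26 at 48 h in young arrays. Every old array lay above every young array. The difference was 1.93 ± 0.24 (SE), or 3.81-fold, with a limma adjusted p of 0.00028. It was 1.67, 2.34 and 1.78 at 24, 38 and 48 h. Untreated livers held 12.48, 12.30 and 12.21 in old mice, against 11.05, 11.16 and 10.59 in young mice, a difference of 1.40 (limma adjusted p = 0.067). Of 29 circadian genes, 19 were higher in old livers, the median difference was 0.09, and Noct alone passed. Arntl, the clock's activator, differed by -0.20 and Dbp, an output factor of the clock, by 0.53 (limma adjusted p = 0.92 and 0.87). Dbp moved with the time of sampling, at 11.12 and 10.27 at 24 h, 6.55 and 7.29 at 38 h, and 9.06 and 11.61 at 48 h in old arrays, against 8.89 and 10.31, then 6.97, then 10.11 and 9.45 in young arrays. It was lowest at 38 h in both ages.

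**Figure D1:**
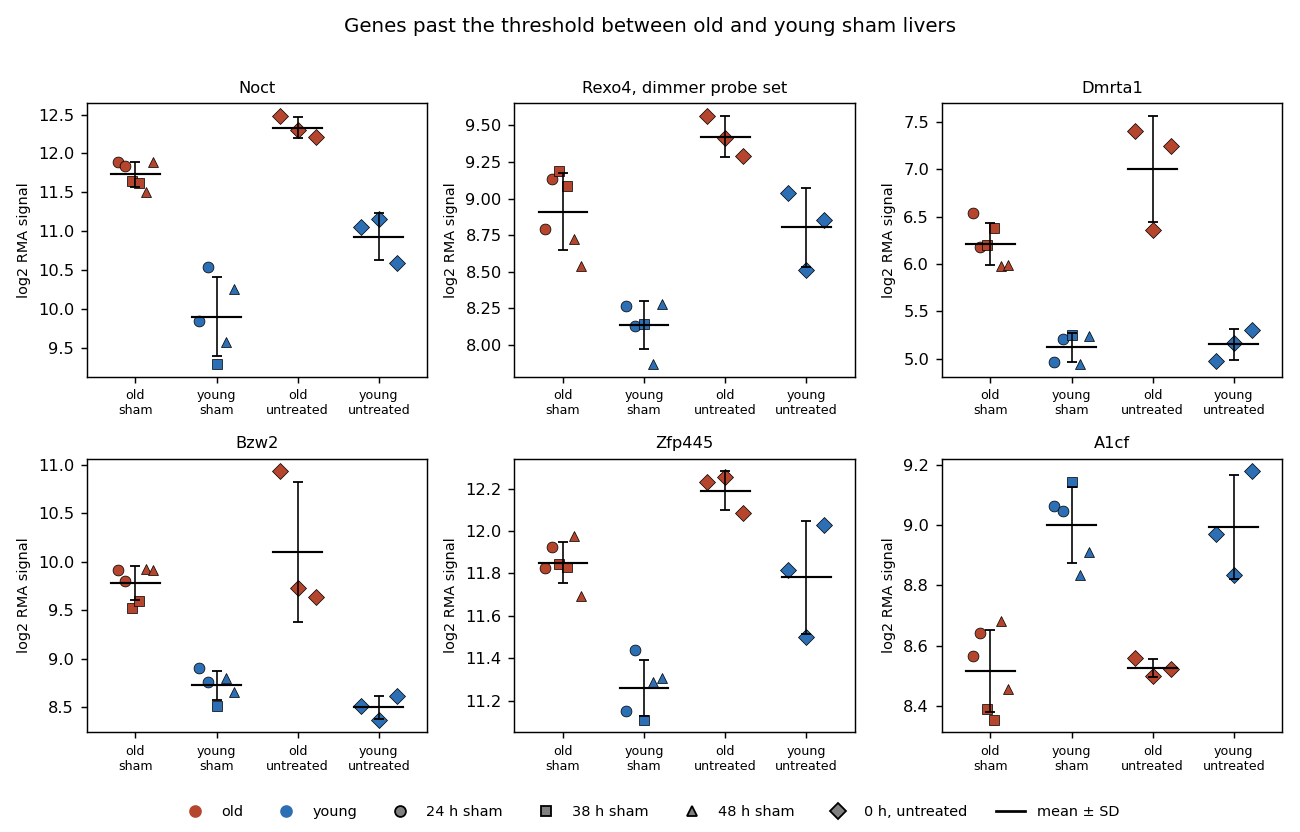
Log2 RMA signal of 6 genes that passed between old and young sham livers, for each array (points, shaped by time), with the mean and SD of each group. Old arrays lie above all young sham arrays in Noct, Rexo4, Dmrta1, Bzw2 and Zfp445, and below all of them in A1cf, and untreated livers are shown beside them.

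Rexo4, which encodes an exonuclease-family protein of the nucleolus, rose on both of its probe sets. The dimmer one read 8.79, 9.14, 9.19, 9.09, 8.73 and 8.54 in old arrays, against 8.27, 8.13, 8.14, 7.87 and 8.28 in young arrays, in order of time. The groups did not overlap on either probe set. The differences were 0.77 ± 0.11 and 0.48 ± 0.07 (SE), with limma adjusted p of 0.0026 and 0.00088. Both lost the call when only 24 and 48 h were used (limma adjusted p = 0.069 for each).

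Dmrta1, a transcription factor with a DM domain, was near the floor of the array in young livers. It read 6.53, 6.18, 6.20, 6.38, 5.98 and 5.99 in old arrays, against 4.96, 5.21, 5.25, 4.94 and 5.24 in young arrays. The difference of 1.07 ± 0.17 (SE) was 2.10-fold, with a limma adjusted p of 0.0044. In untreated livers it was 1.85 (limma adjusted p = 9.5e-05). Noct kept its call in all 24 alternative analyses, and Dmrta1 kept it in the 23 that measured it.

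Zfp445, a zinc finger protein that protects imprinted genes, read 11.69 to 11.98 in old arrays, against 11.11 to 11.44 in young arrays. The groups did not overlap. Its difference was 0.62 ± 0.09 (SE), with a limma adjusted p of 0.0034, and 0.057 at 24 and 48 h alone. Its other probe sets differed by 0.48 and 0.27, with limma adjusted p of 0.18 and 0.66. A1cf, the RNA-binding partner of the enzyme that edits apolipoprotein B messenger RNA, fell with no overlap between the groups. It read 8.57, 8.64, 8.39, 8.35, 8.68 and 8.46 in old arrays, against 9.06, 9.05, 9.14, 8.83 and 8.91 in young arrays. The difference was -0.51 ± 0.10 (SE), with a limma adjusted p of 0.041, and it passed with 1 of 11 reduced sets of arrays.

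Bzw2, Hsf2bp, Olfr701 and Cp passed on 1 probe set, and none of their other probe sets passed. Bzw2, a regulator of translation start, read 9.92, 9.80, 9.52, 9.59, 9.93 and 9.91 in old arrays, against 8.90, 8.76, 8.51, 8.80 and 8.66 in young arrays. Its brightest probe set differed by 1.09 ± 0.20 (SE; limma adjusted p = 0.037), and its other probe sets by 0.02 and 0.04. Hsf2bp, known for its part in meiotic recombination, read 8.22, 8.17, 8.58, 8.47, 8.35 and 8.08 in old arrays, against 7.29, 7.07, 7.33, 7.05 and 7.08 in young arrays. It differed by 1.12 on one probe set and 0.06 on the brighter one (limma adjusted p = 0.00028 and 0.90). Olfr701, an olfactory receptor gene, differed by 0.90 and 0.08. Cp, the plasma copper carrier ceruloplasmin, has 8 probe sets, and the dimmest differed by 0.68 while the 4 brightest differed by 0.09 to 0.11. The Bzw2 and Olfr701 calls were lost in 10 and 9 of 11 reduced sets of arrays. The Cp call was lost only with 24 and 48 h alone, and the Hsf2bp call in none.

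Antibody genes gave the largest differences. Ighm, the heavy chain of immunoglobulin M, read 10.97 and 12.98 at 24 h, 11.13 and 11.34 at 38 h, and 10.92 and 13.70 at 48 h in old arrays, against 9.02 and 8.85, then 9.11, then 11.05 and 9.82 in young arrays. The lowest old array lay just under the highest young array, and 2 old arrays lay far above the others. The difference was 2.35 ± 0.44 (SE), or 5.09-fold, with a limma adjusted p of 0.037. The call was lost in 8 of 11 reduced sets of arrays, and the other 10 Ighm probe sets differed by -0.18 to 2.26 without passing. Igkv8-30, a kappa light chain variable gene, read 9.66, 12.41, 9.76, 9.67, 9.92 and 10.70 in old arrays, against 7.62, 7.94, 8.39, 8.08 and 7.89 in young arrays. These groups did not overlap, and the difference was 2.30 ± 0.38 (SE; limma adjusted p = 0.0077), which became 0.056 without the second old 48 h array. Jchain, which joins antibody units into polymers, differed by 2.24 with no overlap between groups but did not pass (limma adjusted p = 0.060). It passed in 6 of 24 alternative analyses.

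Over 44 probe sets named for immunoglobulin genes or Jchain, a group drawn up after their values were seen, 35 were higher in old livers and the median difference was 0.21. 10 of them (22.7%) had old arrays above all young arrays, against 0.847% of all probe sets, and 10 differed by more than 1. 2 passed (4.55%), against 0.0458% of all probe sets. Probes of antibody genes match related segments, so these probe sets are not independent of each other. The same arrays were high in several genes. Jchain reached 11.38 in the second old 24 h array and 11.43 in the second old 48 h array, against 8.23 to 9.24 in the other old arrays. Iglv1, a lambda light chain gene, reached 12.84 in the second old 48 h array, against at most 8.85 elsewhere. Markers of other tissues were also high in the second old 24 h array. The mean of 10 mesothelium and omentum genes, a list made after these values were seen, was 8.29 there, against at most 7.53 in the other old arrays and 7.31 in young arrays. The mean of 8 adipose genes was 9.15 there, against at most 8.61 in the other old arrays and 8.21 in young arrays. The second old 24 h array was the highest in 5 of the 10 mesothelium and omentum genes and 4 of the 8 adipose genes. In 4 other mesothelium and omentum genes the second old 38 h array was the highest. The second old 24 h array was also the highest in 15 of 35 stellate cell and matrix genes. The part of these tissues in the antibody values was not tested. In the second old 48 h array the mesothelium and adipose means were 7.40 and 8.27. Of the 21 genes of the B and plasma cell list, 17 were higher in old livers, and Ighm alone passed. Their median of 0.11 was 0.07 without the second old 24 h array and 0.25 with 24 and 48 h alone. Igha, the heavy chain of immunoglobulin A and the brightest member after Ighm, differed by 0.21 (limma adjusted p = 0.80). T and natural killer cell genes had a median difference of -0.01, with 12 of 27 higher and none passing.

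**Figure D2:**
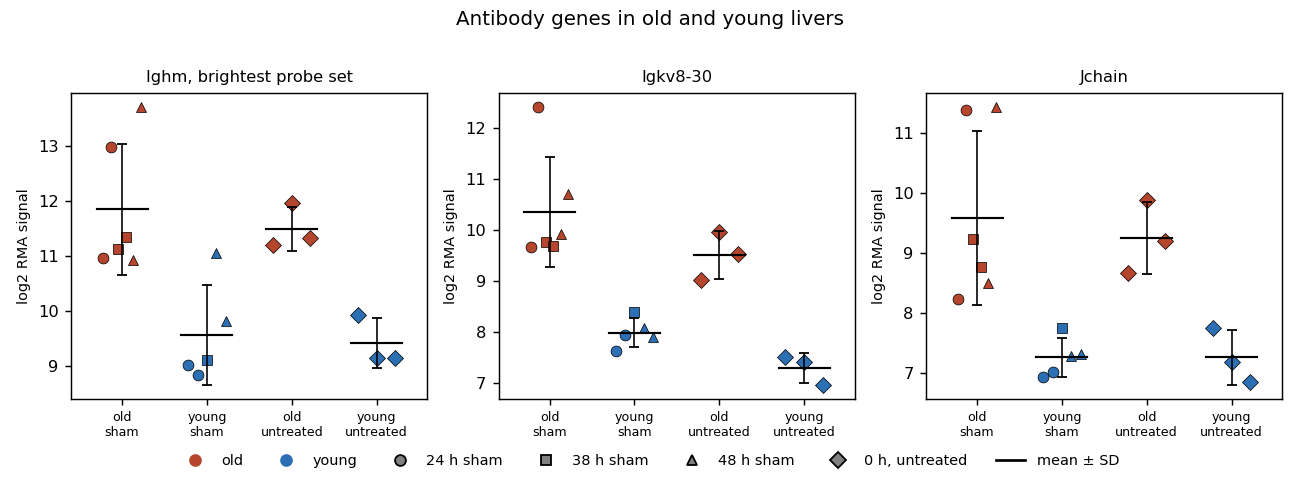
Log2 RMA signal of Ighm, Igkv8-30 and Jchain in each array (points, shaped by time), with the mean and SD of each group. Old sham arrays spread widely, up to 13.70 for Ighm, and old untreated livers also lie above young untreated livers.

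Interferon-induced genes were higher in old sham livers, mainly at 24 h, and none passed. Of 33 measured, 32 were higher in old livers, with a median difference of 0.27, against 50.6% and 0.00 over all genes. 7 (21.2%) were higher at an unadjusted p below 0.05, against 4.41% of all genes. The median was 0.79 at 24 h, -0.13 at 38 h and 0.07 at 48 h, and it was 0.51 with 24 and 48 h alone. Whether the age difference changed with time was tested gene by gene, and no interferon gene passed that test. Bst2, the virus tether tetherin and among the brightest of the list, read 11.50 and 11.09 at 24 h, then 10.62, 10.72, 10.69 and 10.76 in old arrays, against 10.53, 10.29, 10.59, 10.56 and 10.62 in young arrays. The lowest old array and the highest young array both stood at 10.62. Iigp1, an interferon-induced GTPase and the brightest, differed by 0.13.

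The following were named after their values were seen. Irf7, a transcription factor that drives type I interferon genes, read 11.83 and 10.39 at 24 h, 9.33 and 9.59 at 38 h, and 9.9998 and 10.03 at 48 h in old arrays, against 9.36, 9.19, 9.30, 9.23 and 9.06 in young arrays. Its difference was 0.96 (limma adjusted p = 0.24). Oas1a, which makes the activator of RNase L, differed by 0.72, and Gbp3, a guanylate-binding protein, by 0.78. Ifit1, which binds viral RNA, reached 10.93 in the first old 24 h array and 8.93 in the second, against 7.65 to 7.92 in young arrays at 24 h. Without the first old 24 h array the 24 h median of the list was 0.71, and without the second it was 0.87. Ifi27 is not on the list but is known as interferon-inducible. It read 12.07 to 12.998 in old arrays, against 11.12 to 11.40 in young arrays, with a difference of 1.01 and a limma adjusted p of 0.058. Of 24 alternative analyses, Ifi27 passed in 9 and Irf7 in 2, and Oas1a, Gbp3, Ifit1 and Bst2 passed in none.

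The promoters of 4 of these genes are shown because they carry the interferon element that the group is known for. The motif searched was GAAA, any 2 bases and GAAA again, on either strand, in the window of 250 bases before to 50 after the start in RefSeq on GRCm38.p6. Counted by gene, over any of its promoters, it occurred in 16 of 24 interferon genes in that table, against 3.99% of all 27025 genes. Counted by promoter, 3.45% of 32544 distinct sequences held it. A second Gbp3 promoter, at chr3:142560106-142560405, held no match. Capitals mark it, and overlapping matches run together. Matches are a description of letters, not of binding. Oas1a lies at chr5:120907476-120907775, minus strand, Gbp3 at chr3:142559794-142560093, plus strand, Ifit1 at chr19:34640639-34640938, plus strand and Bst2 at chr8:71537423-71537722, minus strand.
Oas1a: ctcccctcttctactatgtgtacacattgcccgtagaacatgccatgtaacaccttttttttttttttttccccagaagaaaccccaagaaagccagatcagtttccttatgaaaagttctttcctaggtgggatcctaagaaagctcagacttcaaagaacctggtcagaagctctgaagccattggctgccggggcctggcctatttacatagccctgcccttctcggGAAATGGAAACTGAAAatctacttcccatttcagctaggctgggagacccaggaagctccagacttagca
Gbp3: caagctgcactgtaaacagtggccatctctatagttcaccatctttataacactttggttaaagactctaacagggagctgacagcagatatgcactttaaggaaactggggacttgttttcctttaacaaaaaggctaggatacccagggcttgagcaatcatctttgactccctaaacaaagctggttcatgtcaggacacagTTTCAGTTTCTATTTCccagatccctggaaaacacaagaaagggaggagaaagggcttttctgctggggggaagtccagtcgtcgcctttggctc
Ifit1: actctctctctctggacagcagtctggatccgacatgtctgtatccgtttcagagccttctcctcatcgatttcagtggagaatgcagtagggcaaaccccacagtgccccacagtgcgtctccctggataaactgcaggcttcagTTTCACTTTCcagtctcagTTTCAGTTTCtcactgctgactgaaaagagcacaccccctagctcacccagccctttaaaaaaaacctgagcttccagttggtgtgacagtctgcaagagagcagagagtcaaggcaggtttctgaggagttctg
Bst2: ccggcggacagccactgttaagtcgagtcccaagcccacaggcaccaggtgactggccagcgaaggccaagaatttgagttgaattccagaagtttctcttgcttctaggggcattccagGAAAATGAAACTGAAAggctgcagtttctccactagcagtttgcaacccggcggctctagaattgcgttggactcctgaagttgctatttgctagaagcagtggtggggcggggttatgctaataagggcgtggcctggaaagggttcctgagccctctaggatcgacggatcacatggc
In Irf7, the same window held no match.

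Antigen presentation genes showed the same direction without a call. Of 10 MHC class II genes, 8 were higher in old livers, with a median difference of 0.44. Cd74, the chaperone of class II molecules, read 10.22, 11.96, 10.33, 11.01, 10.83 and 10.63 in old arrays, against 9.58, 9.61, 10.21, 9.69 and 9.53 in young arrays. The lowest old array lay just above the young 38 h array, and the difference was 1.02 (limma adjusted p = 0.31). Ctss, the protease that trims the class II chaperone, differed by 0.86, also without overlap (limma adjusted p = 0.39). H2-Aa, a class II chain, differed by 1.08 with overlap. Without the second old 24 h array the class II median was 0.26, and without the first it was 0.63. All 15 class I presentation genes were higher in old livers, with a median of 0.20. B2m, the light chain of class I molecules, differed by 0.04, H2-K1, a class I heavy chain, by 0.18, and Psmb8, an immunoproteasome subunit, by 0.54. None of the 15 passed in the main fit. Of 24 alternative analyses, Psmb8 passed in 2, Ctss in 2 and Cd74 in 1, and H2-Aa, B2m and H2-K1 passed in none.

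The H2-Aa promoter is shown with its CCAAT box, a motif searched as CCAAT on either strand, which 6 of 7 class II genes in the table carried in any promoter, against 41.1% of all genes. It lies at chr17:34287774-34288073, minus strand on GRCm38.p6, with the match in capitals.
H2-Aa: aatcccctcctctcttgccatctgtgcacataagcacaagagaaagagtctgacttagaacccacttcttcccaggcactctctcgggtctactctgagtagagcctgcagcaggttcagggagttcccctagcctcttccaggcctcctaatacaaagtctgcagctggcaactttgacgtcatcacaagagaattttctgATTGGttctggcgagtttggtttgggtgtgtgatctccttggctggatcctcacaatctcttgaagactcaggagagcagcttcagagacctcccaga

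Kupffer cell and macrophage genes were mostly higher in old livers. Of 32, 29 were higher, with a median of 0.28, and none passed. The medians were 0.39 at 24 h, -0.03 at 38 h and 0.39 at 48 h. Ctsb, a lysosomal protease, differed by 0.07. Slc40a1, the iron exporter ferroportin, read 11.77 to 12.25 in old arrays, against 11.54 to 11.68 in young arrays, a difference of 0.38 with no overlap (limma adjusted p = 0.84). Cd163, the macrophage scavenger receptor for hemoglobin, ran the other way. It read 7.02, 6.64, 7.05, 6.10, 7.93 and 6.95 in old arrays, against 8.11, 7.84, 7.82, 7.59 and 7.47 in young arrays. Its difference was -0.83 (limma adjusted p = 0.11), and it was -1.62 in untreated livers (limma adjusted p = 0.0015).

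**Figure D3:**
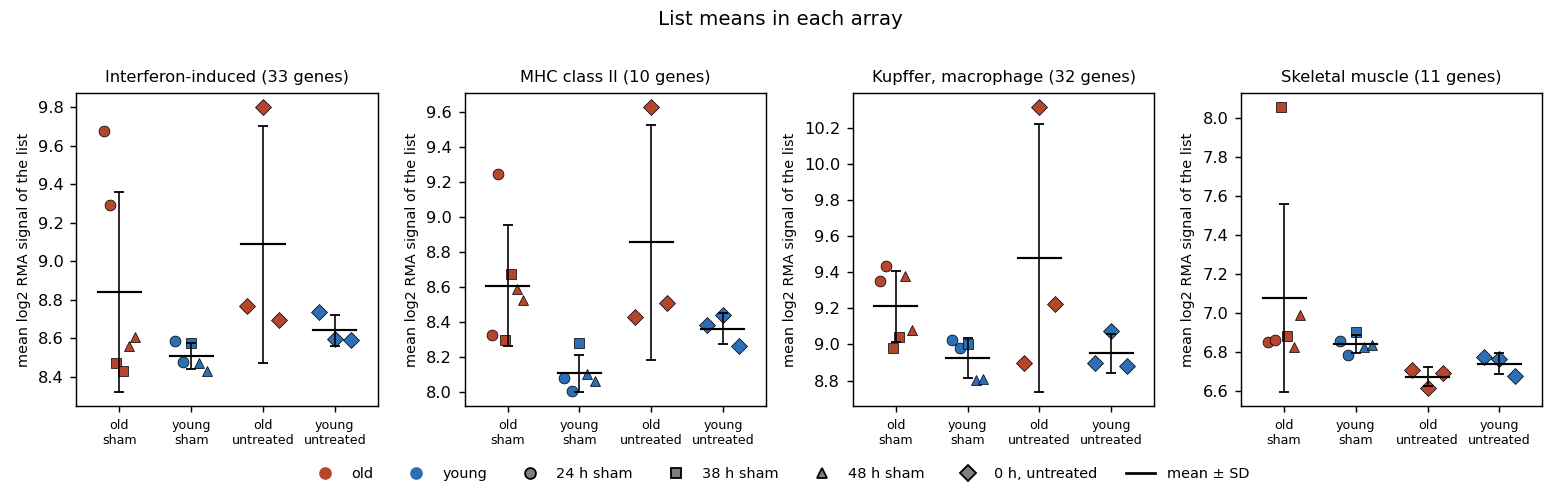
Mean log2 RMA signal of the interferon-induced, MHC class II, Kupffer cell and macrophage, and skeletal muscle lists in each array (points, shaped by time), with the mean and SD of each group. The highest old sham arrays stand at 9.68, 9.24, 9.43 and 8.05, against at most 8.59, 8.28, 9.03 and 6.90 in young sham arrays.

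Protein-folding genes were lower in old livers, without a call. Of 28 unfolded protein response genes, 23 were lower, with a median of -0.16, and of 17 heat shock genes, 15 were lower, also with a median of -0.16. Hspa5, the chief chaperone of the endoplasmic reticulum, read 12.32 to 13.25 in old arrays, against 12.67 to 13.74 in young arrays, a difference of -0.34 (limma adjusted p = 0.60). Calr, a calcium-binding chaperone, differed by -0.14, Hspd1, the mitochondrial chaperonin, by -0.12 and Hspa8, a cytosolic chaperone, by -0.09. At 38 h the unfolded protein response median was -0.40, and it was -0.09 without the second old 38 h array. At 48 h it was 0.03, with 17 of the 28 genes higher in old livers. The second young 24 h array was the highest in 16 of the 28, and the young 38 h array in 10 of the 17 heat shock genes. With 24 and 48 h alone the medians were -0.05 and -0.07. All 31 cytosolic ribosome genes were higher in old livers, by 0.01 to 0.16, with a median of 0.10. At 24 and 48 h alone 18 of the 31 were higher, with a median of 0.02. Rps29 and Rps2, ribosomal proteins of the small subunit, differed by 0.06 and 0.03.

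**Figure D4:**
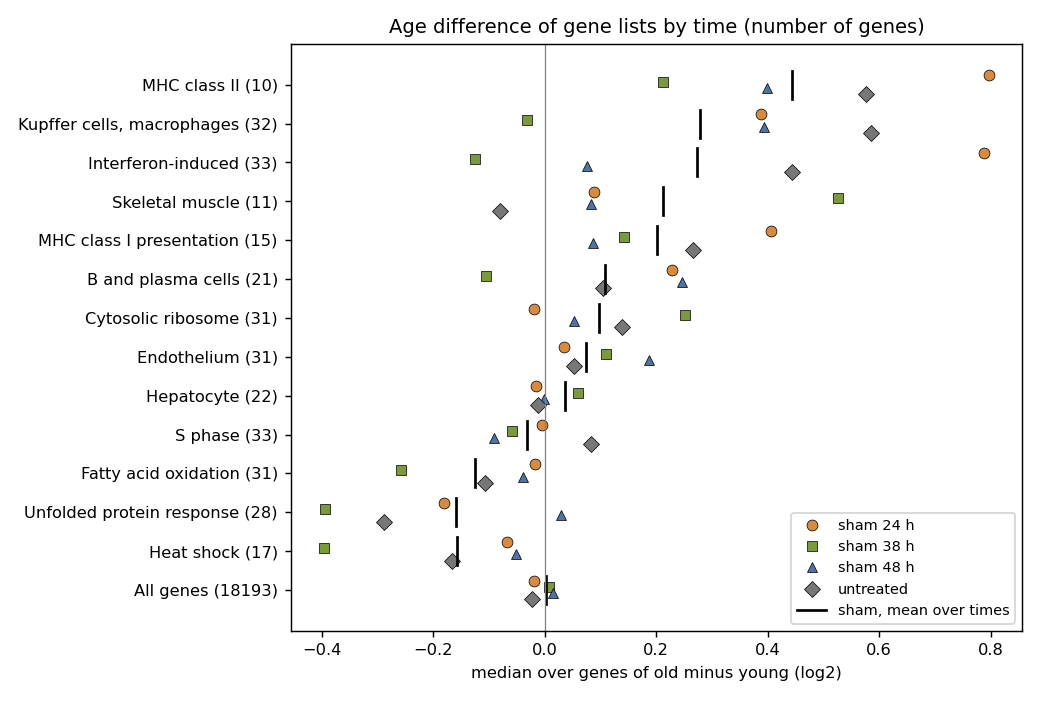
Median old minus young difference (log2) over the genes of each list at each sham time, in untreated livers and as the mean over sham times (black bars), with the number of genes in brackets. The interferon and MHC class II medians are near 0.8 at 24 h and lower at 38 and 48 h, while the median over all genes stays near 0.

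Of the 16 calls, 12 were lost with 24 and 48 h alone, which leaves out the single young 38 h array and the 38 h age difference with it. In 4 of these the difference itself was within 0.05 of 0. Slc26a3 on its clearest probe set read 5.82 to 6.09 in old arrays, against 5.98, 6.11, 7.89, 6.07 and 5.95 in young arrays, where 7.89 is the 38 h array. Its 3 called probe sets gave differences of -0.53 to -0.68 over all times, with limma adjusted p of 0.00017 to 0.0073, and -0.02 to -0.05 without that array. The brightest of its 4 probe sets did not pass, at -0.04. Car9, carbonic anhydrase 9, read 8.45 in that array, against 7.34 to 7.72 in old arrays and 7.54 to 7.61 in the other young arrays, and its difference without that array was -0.01. Muc3, an intestinal mucin, read 7.37 there, against 6.44 to 6.65 in all others. Of 25 measured intestinal markers, a list made after these values were seen, 5 were highest in that array, and the list averaged 7.73 there, against 7.57 to 7.64 in old arrays and 7.57 to 7.62 in the other young arrays. The part of intestinal tissue in this result was not tested. Nr1d1, a clock repressor, was also apart in that array, at 7.47, against 8.98 to 10.48 in old arrays and 9.85 to 10.26 in the other young arrays.

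**Figure D5:**
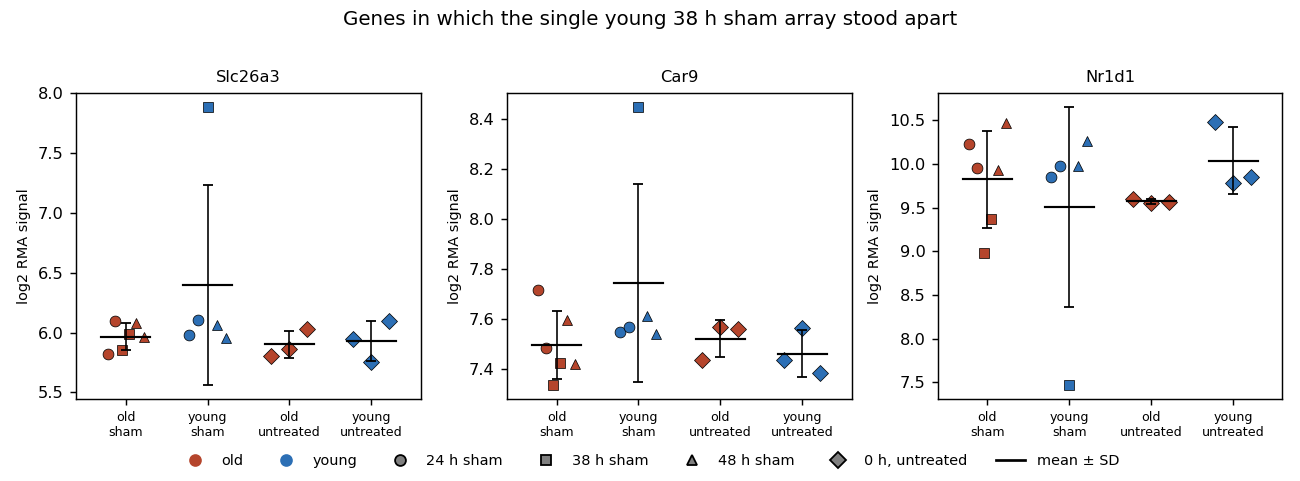
Log2 RMA signal of Slc26a3, Car9 and Nr1d1 in each array (points, shaped by time), with the mean and SD of each group. The young 38 h sham array (blue square) lies above all others for Slc26a3 and Car9 and below all others for Nr1d1.

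At single times few probe sets passed. At 24 h and at 48 h the limma count was 0 (0%), and limma on the 11 sham arrays alone called 42 and 2. Of 34945 probe sets, 2128 and 744 had an unadjusted p below 0.05 at these times, where chance alone gives about 1 in 20. The count was above that share at 24 h and below it at 48 h. At 38 h, where the single young array was assumed to vary like the other groups, 16 passed (0.0458%), 7 higher and 9 lower in old livers. Those furthest up included Cnp, a myelin enzyme also found outside nerve, at 1.599, and Cp at 1.15 on its dimmest probe set. Rpl22l1, a ribosomal protein paralog, was also among them, at 1.13, and those furthest down were Slc26a3, Car9 and Muc3. Without the first old 24 h array, 71 probe sets passed at 24 h, and without the second, 7 did, with 1 old array left. The age difference depended on time in 6 probe sets (0.0172%), namely 3 of Slc26a3 and 1 each of Car9, Paxx, a DNA end-joining factor, and Mroh1. Paxx differed by -0.36, 0.88 and -0.25 at 24, 38 and 48 h, and Mroh1 by -0.08, -0.55 and 0.42 on a dimmer probe set. The brightest Mroh1 probe set did not pass, and read 9.32 to 9.61 in old arrays, against 9.35 to 9.53 in young arrays. Without the first old 24 h array that count was 31, and without the first or second old 38 h array it was 11 or 16. The skeletal muscle median at 38 h was 0.53, and -0.07 without the first old 38 h array, in which Acta1, skeletal actin, read 10.88, against at most 7.97 in the other sham arrays, and Ckm, muscle creatine kinase, read 9.93, against at most 8.03.

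Of 45 gene lists holding 1066 measured genes, 43 had no member that passed and 33 had a median difference within 0.1 of 0. The 2 members that passed are 0.188% of the 1066, against 0.0495% of all genes, and at such shares a list with no member that passed does not stand apart from all genes. Of 37 measured genes in a panel of liver and aging markers, none passed, and 24 differed by less than 0.25. The cell cycle inhibitors Cdkn2a and Cdkn1a, often read as senescence markers, differed by 0.06 and 0.09. Igf1, the growth factor that growth hormone induces, differed by 0.04, and Ghr, the growth hormone receptor, by -0.02. The male-biased genes Hsd3b5, a steroid dehydrogenase, and Slco1a1, an organic anion transporter, differed by -0.81 and -0.39 with overlapping arrays (limma adjusted p = 0.90 and 0.89). Of 32 male-biased genes, 14 were higher in old livers, with a median difference of -0.04. Their mean was 10.76 in the second old 38 h array, against 11.13 to 11.48 in the other old arrays. The drug-metabolizing enzymes Cyp3a11 and Cyp1a2 differed by -0.03 and 0.10, and Cyp7a1, the rate-limiting enzyme of bile acid synthesis, by 0.17. Peroxisome proliferator-activated receptor alpha targets were lower in 24 of 31, with a median of -0.13 that was -0.05 with 24 and 48 h alone. Cyp4a14, a fatty acid hydroxylase, differed by -0.99 (limma adjusted p = 0.77) and reached 12.03 in the young 38 h array, which was the highest array in 19 of the 31. Mitosis and S-phase genes had median differences of -0.08 and -0.03, and Mki67, the proliferation antigen, read 5.96 to 6.70 in old arrays, against 6.14 to 6.91 in young arrays, with no call in either list.

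Of 26 acute-phase genes, 11 were higher in old sham livers, with a median difference of -0.02, and 18 were higher in old untreated livers, with a median of 0.14. Lcn2 and Saa2 were the panel's acute-phase genes that passed in untreated livers. Lcn2, the iron-binding lipocalin of the acute phase, was 3.14 higher in old than in young untreated livers (limma adjusted p = 0.0015), with 10.78, 12.78 and 13.77 in old, against 9.21, 10.38 and 8.31 in young. After sham surgery it read 12.32 to 14.32 in old arrays, against 12.56 to 14.38 in young arrays, a difference of -0.04. Saa2, serum amyloid A, differed by 2.39 in untreated livers (limma adjusted p = 0.046) and by -0.25 in sham livers. The test of whether the age difference in sham livers departed from that in untreated livers gave a limma adjusted p of 0.076 for Lcn2 and 0.40 for Saa2. No probe set passed that test (0%), and 2034 of 34945 had an unadjusted p below 0.05, where chance alone gives about 1 in 20. Hp and Fgb, haptoglobin and a fibrinogen chain, differed by -0.03 and -0.01 after sham surgery.

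Untreated and hepatectomized livers share no array with sham livers, so they give the age difference again in other arrays. The fit uses the same estimate of spread for each probe set in all of them, and the same suppliers provided the mice. In untreated livers 60 probe sets passed (0.172%), and in hepatectomized livers 1830 did (5.24%). Of the 16 probe sets called in sham livers, 15 had the same sign in untreated livers and 5 of these passed there. In hepatectomized livers 14 had the same sign and 12 of these passed. Without the Slc26a3 and Car9 probe sets, 12 probe sets of 11 genes were called in sham livers. All 12 had the same sign in untreated livers and 5 of them passed there, namely Dmrta1, Hsf2bp, Bzw2, Olfr701 and 1 of Rexo4. All 12 had the same sign in hepatectomized livers and all passed. Noct was 1.15 higher there, Ighm 1.87 higher and Bzw2 1.01 higher (limma adjusted p = 0.00081, 0.0021 and 0.00059), while A1cf was 0.33 lower on the log2 scale, with a limma adjusted p of 0.0099. Over all genes, 58.0% had the same sign in sham and untreated livers, and the share was 68.5% among the 1496 genes with an unadjusted p below 0.05 in sham livers. The test of hepatectomized against sham livers gave 1 probe set (0.00286%), an Slc26a3 probe set that the young 38 h array sets. The second old untreated array was high in the interferon, class II and macrophage lists, and without it their untreated medians were 0.05, 0.13 and 0.15, against 0.44, 0.58 and 0.59 with it.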

How the data were processed

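RNA of mouse liver was measured on 35 Affymetrix arrays, prepared from 5 µg of total RNA per the labels. The deposited values are log2 signals, which the authors made with RMA, a method that summarises the probes of a set on the log2 scale, per the submitters' processing notes, which give no version or annotation. Scanner files, scan dates and detection calls were not used here, so no batch could be tested, and the number of arrays limits the precision. All 35 deposited columns were matched to samples by their labels, and none were identical.

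Of 45101 probe sets, 34945 had 1 gene symbol in GEO's platform annotation. Another 932 had several symbols, 9211 were not listed there, and controls were left out. limma 3.58.1 in R 4.3.3 fitted the mean of each of 14 groups of age, treatment and time. The contrast was the equal-weight mean of the old minus young differences at 3 times, moderated with 21 residual and 3.42 prior degrees of freedom and adjusted by Benjamini-Hochberg over all 34945 probe sets. The alternatives changed the arrays fitted, the weight of times, the unit, the scaling, the filter, the variance prior, array weights and a replicate block.

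The arrays, the 45 gene lists and the panel were chosen with earlier results of these data known. Genes named are those that passed without overlap, up to 4 passing or the 2 brightest members of a list, the panel, and those passing at one time or between conditions. Any other named gene was chosen after its values were seen. Lists are described by counts and medians, with no test.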

Additional observations from a re-analysis of the deposited data

Results flagged for a closer look

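Single arrays stood apart within the 6 old or the 5 young sham arrays in 27 of 230 sets of values examined, by the gap to the nearest array over the group's range. Chance gives about 1 in 20, arrays that are apart in several genes count each time, and some of these genes were named because an array stood apart in them, so the excess over chance is no finding. Among old arrays, the first 24 h array was highest for Ifi27 at 12.998. The second 24 h array was highest for Cxcl9 at 10.1, Col3a1 at 11.6 and Igha at 10.1. The first 38 h array was highest for Ckm at 9.93, Acta1 at 10.9 and the mean of the muscle list at 8.05. The second 38 h array was highest for Psme1 at 12.3 and Cnp at 10.9, and lowest for Fabp1 at 14.1, Calr at 12.99 and Cyp4a12a at 12.5. The second 48 h array was highest for Iglv1 at 12.8. Among young arrays, the 38 h array was highest for Slc26a3 at 6.32, 7.75 and 7.89 on 3 probe sets, Car9 at 8.45, Muc3 at 7.37, Cd74 at 10.2 and Igha at 9.58, and lowest for Nr1d1 at 7.47 and Cnp at 8.94. The second young 24 h array was highest for Fen1 at 11.4 and lowest for Bst2 at 10.3 and Ifi27l2a at 7.68. The first young 48 h array was highest for Col1a1 at 9.77, and the second was lowest for Cdkn2a at 5.68.

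The age difference departed between the 3 sham times in 6 probe sets by limma's F test. The adjusted p was 1.07e-05, 0.00029 and 0.0024 for Slc26a3, 0.0024 for Car9, 0.027 for Paxx and 0.042 for a dimmer Mroh1 probe set. Slc26a3 also differed in its age difference between hepatectomized and sham livers, with a limma adjusted p of 0.0055. The Slc26a3 and Car9 values rest on the single young 38 h array.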

How the results depend on the processing

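The count of 16 probe sets over the 3 times was 108 with the 11 sham arrays alone, 66 with sham and untreated arrays, 7 with 24 and 48 h alone, 10 with the mean of a gene's probe sets and 423 with array weights, whose estimation stopped before converging. It was 10 when the second old 24 h array was also left out of 24 and 48 h, an alternative added after seeing the data, and 10 to 45 without 1 array. Other settings stayed within 1.5 times. Sham arrays alone gave 42 probe sets at 24 h, 102 at 38 h, 2 at 48 h and 3 for age by time. Sham with untreated arrays gave 8, 73 and 1 at the 3 times and 105 in untreated livers. Array weights gave 64, 1005 and 24 at the 3 times, 90 for age by time, 262 in untreated livers, 27 for sham against untreated and 2 for hepatectomy against sham. Without 1 array, the ranges were 0 to 71 at 24 h, 0 to 1 at 48 h and 4 to 31 for age by time. Centring and quantile normalization gave 3 and 4 for sham against untreated. With 24 and 48 h alone, the list medians were 0.51 for interferon, 0.40 for macrophage and 0.0188 for ribosome genes, and with the added setting 0.50, 0.38 and -0.0208, and 0.31 for MHC class I. Under that setting Car9 was 0.0448, the opposite sign, and it was -0.0127 with 24 and 48 h alone. The causes of these changes were not tested. The replicate block gave 12 probe sets over the times, 8 at 38 h and 1 for sham against untreated. In deviations from their group means, same-numbered old and young sham arrays correlated at -0.017 at 24 h and -0.043 at 48 h. With 2 arrays per group both replicate numbers give the same value, and the single young 38 h array allows none. Groups of 3 arrays gave -0.23 to 0.40, so whether replicate numbers pair the arrays cannot be told. The small number of arrays limits the precision.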
